A study of Mus musculus with 6 samples.

Results

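The 10 genes described here belong to the p53, p21 and GADD45 growth arrest response: Trp53, Cdkn1a, Mdm2, Ccng1, Btg2, Gadd45a, Gadd45b, Gadd45g, Sesn1 and Bbc3. They were chosen by symbol as known p53 targets and GADD45 genes, after a higher Cdkn1a level in CREBH-KO livers had been seen in these same data, and they make up 10 of 55536 genes counted. The CREBH-KO against WT values of the members are therefore given as a description with no p-value. The question was whether the higher Cdkn1a level stood alone or went along with other p53 targets. Liver RNA came from CREBH-KO mice and from WT control mice, both fasted for 14 h, with 3 libraries per genotype. CREBH is a transcription factor of hepatocytes encoded by Creb3l3. The labels name no further treatment and give no strain, age or sex, nor do they say how the CREBH allele was made. They call the samples independent without stating that each came from its own mouse, so p-values measure the spread between these samples. For CREBH-KO 2 and CREBH-KO 3 the labels record that the read 1 file was lost. The members' values are therefore also given for CREBH-KO 1 alone against WT, as are values of some other named genes that differ there by more than 1.5-fold. That fit has 1 CREBH-KO library and called far fewer genes over all genes tested. Calls lost there are therefore not particular to the genes named, and the part of the lost read 1 files in this was not tested.

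The p53 protein, encoded by Trp53, is a transcription factor that is held at a low level by the ubiquitin ligase Mdm2 and is stabilised after DNA damage and other stress, largely without a change in its own mRNA. Its best known targets arrest the cell cycle (Cdkn1a, which encodes the CDK inhibitor p21), feed back on p53 (Mdm2), restrain growth signalling (Sesn1) or start apoptosis (Bbc3, which encodes PUMA). Several of these genes are also switched on without p53: in liver, Cdkn1a and GADD45 genes are known to respond to fasting, regeneration and inflammation, and the GADD45 proteins bind and activate stress kinases.

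Creb3l3, the gene that the CREBH-KO label names, had 57.4, 45.0 and 46.4 CPM (counts scaled to a common library size with TMM factors) in CREBH-KO 1, 2 and 3, against 467, 496 and 495 CPM in WT 1, 2 and 3. Counts in genes numbered between 28106243 and 39288819 per library. All 10 members passed the filter on low counts, and the lowest count of a member in a library was 25. All 8 hepatocyte markers were detected, with summed levels of 71023 to 76144 CPM in CREBH-KO and 61438 to 75096 CPM in WT. By edgeR 1 was called lower (Apob, log2 fold change -0.36 ± 0.09 SE). Of these 8, 4 had an unadjusted p under 0.05, DESeq2 called 2 and limma 1, and 4 had a log2 fold change above 0. The sums of 8 stellate cell markers did not overlap, at 198 to 234 CPM in CREBH-KO and 146 to 173 CPM in WT. By edgeR 1 of the 8 was called higher (Dcn, log2 fold change 0.56 ± 0.09 SE). At an unadjusted p under 0.05 there were 4, DESeq2 called 2 and limma 1. The log2 fold change was above 0 for 7 of the 8, with a median of 0.57, and none of the 8 was at 0 in all libraries. Sums overlapped between the genotypes for Kupffer and macrophage markers (0 of 8 called by edgeR, 1 at an unadjusted p under 0.05, 1 by DESeq2 and 0 by limma) and for endothelial markers (0 of 8 called by edgeR, 4 at an unadjusted p under 0.05, 0 by DESeq2 and 0 by limma). They overlapped for cholangiocyte markers as well (1 of 5 tested called by edgeR, 2 at an unadjusted p under 0.05, 1 by DESeq2 and 1 by limma). Sox9 was called higher (log2 fold change 0.96 ± 0.23 SE). The other 4 were not called, at -1.11 (Epcam), -0.35 (Krt19), -0.09 (Spp1) and 0.04 (Krt7). None of the 6 lymphocyte and neutrophil markers tested was called by edgeR, DESeq2 or limma, and 0 had an unadjusted p under 0.05. In whole liver, fewer cells of a type and less RNA per cell cannot be told apart, and the part of the stellate markers in the values below was not tested.

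Cdkn1a and the GADD45 genes Gadd45b and Gadd45g stood about 5- to 6-fold higher in CREBH-KO livers than in WT livers, Gadd45a stood lower, and Trp53, Mdm2, Ccng1, Btg2, Sesn1 and Bbc3 were not called. By edgeR's quasi-likelihood test adjusted over 15589 genes, 3 of 10 members were called higher, 1 lower and 6 not called. Across all genes tested, 10.4% were called, 3.91% higher and 6.46% lower. In 5 of 10 members the 3 CREBH-KO values did not overlap the 3 WT values, 3 of them higher and 2 lower in CREBH-KO, where 30.6% of all genes tested had groups that did not overlap (15.0% higher and 15.7% lower). The members' median log2 fold change was 0.25, beside 0.02 for all genes tested. The 6 members not called had log2 fold changes between -0.43 and 0.29, 5 of them above 0, as were 8285 of all 15589 genes tested. Changes of this size can be missed: of genes changed 1.5-fold in simulated data, 35.8% were recovered. Since Cdkn1a was among the reasons for the choice, nothing is read from these counts.

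**Figure D1:**
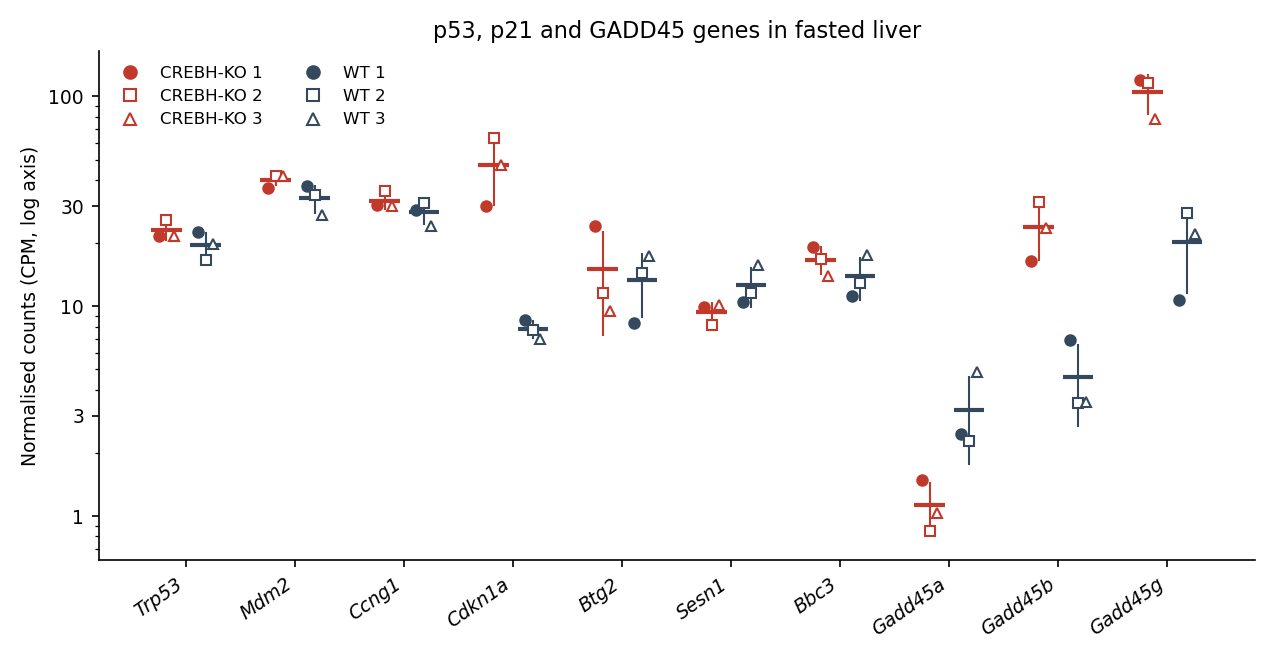
Normalised counts (CPM, log axis) of the 10 members in each library, CREBH-KO left of WT for each gene; the thick bar is the mean and the thin line the SD over 3 libraries. Cdkn1a, Gadd45b and Gadd45g lie higher and Gadd45a lower in all 3 CREBH-KO libraries than in any WT library, while Trp53, Mdm2, Ccng1, Btg2 and Bbc3 overlap.

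Trp53 itself (GRCm38 chr11:69580359-69591873, plus strand) had 21.7, 25.9 and 21.5 CPM in CREBH-KO 1, 2 and 3, against 22.6, 16.7 and 19.7 CPM in WT 1, 2 and 3. The groups overlapped, since WT 1 lay above CREBH-KO 1 and CREBH-KO 3. Its log2 fold change, CREBH-KO minus WT, was 0.23 ± 0.13 (SE, n = 3 per genotype), with a 95% interval of -0.07 to 0.52. Mdm2 (chr10:117688875-117710758, minus strand), the p53 target that limits p53 by ubiquitination, had 36.8, 41.8 and 41.6 CPM in CREBH-KO, against 37.3, 33.8 and 27.1 CPM in WT. Here too the groups overlapped, through CREBH-KO 1 and WT 1. The log2 fold change of Mdm2 was 0.29 ± 0.12 (SE, n = 3), and its 95% interval of 0.02 to 0.56 reached at most 1.48-fold. With CREBH-KO 1 alone against WT the log2 fold change was 0.12 for Trp53 and 0.15 for Mdm2.

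None of 15 tested p53 regulators, among them upstream kinases, cofactors and ubiquitin ligases, was called by edgeR, DESeq2 or limma, and 0 had an unadjusted p under 0.05. The p53 relatives Trp63 and Trp73 were listed but too low to be tested. Trp53inp1, which also acts on p53, was counted with the p53 targets below, where it was called higher. Mdm4, the Mdm2 relative that inhibits p53, averaged 55.3 ± 7.58 CPM in CREBH-KO and 53.8 ± 5.64 CPM in WT (SD, n = 3), a log2 fold change of 0.04 ± 0.12 (SE). The p53 relatives were close to absent: Trp63 had 1 count over the CREBH-KO libraries and 0 over the WT libraries, and Trp73 had 0 over the CREBH-KO libraries and 1 over the WT libraries. The list's median log2 fold change was 0.04. These are mRNA levels, and p53 protein and its modification were not measured.

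Cdkn1a (chr17:29090976-29100727, plus strand) had 30.1, 63.6 and 47.1 CPM in CREBH-KO 1, 2 and 3, against 8.61, 7.70 and 6.99 CPM in WT 1, 2 and 3. The WT libraries lay close together and the CREBH-KO libraries spread over about a 2-fold range, with CREBH-KO 1 lowest and still above every WT library. The mean was 46.9 ± 16.7 CPM in CREBH-KO and 7.77 ± 0.813 CPM in WT (SD, n = 3), a log2 fold change of 2.59 ± 0.24 (SE) or 6.02-fold. In CREBH-KO 1 alone against WT the log2 fold change was 1.93, and leaving out each library in turn gave 2.31 to 2.83. Of the exonic bases of Cdkn1a, 7.68% lie antisense to the transcript AC167363.2, which had 26, 33 and 18 counts in CREBH-KO and 3, 1 and 0 counts in WT. Whether counting used strand is not known here, so reads from Cdkn1a and AC167363.2 cannot be told apart in that stretch. At 1028 to 1880 counts in CREBH-KO and 215 to 333 counts in WT, Cdkn1a itself was the far larger count.

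The RefSeq table of 32851 promoter windows (GRCm38.p6, 250 bases before to 50 after a transcript start) holds 2 windows for Cdkn1a. The upstream one is printed for its p53 motif, the 2 capital blocks being the matches to the p53 consensus decamer. They lie between bases -73 and -42 from that upstream start. Only exact matches were taken, and the bases right after the later block, tgacatgttc, miss the decamer at their first base alone. The window is on the plus strand at chr17:29090729-29090978 and shows the 250 bases before that start. The same bases for the other window lie downstream, at chr17:29093519-29093768.
Cdkn1a upstream window: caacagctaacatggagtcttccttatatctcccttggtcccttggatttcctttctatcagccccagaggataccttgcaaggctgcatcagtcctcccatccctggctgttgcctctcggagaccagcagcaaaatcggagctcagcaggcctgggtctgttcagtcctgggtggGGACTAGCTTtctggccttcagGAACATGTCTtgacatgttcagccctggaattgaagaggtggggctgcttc
A pair of p53 decamers 0 to 13 bases apart, on either strand, was found in 24 of the 32851 windows (0.0731%) and in no other window of a member. A single decamer was found in 8.36% of all windows, in 6 of the 14 windows of members (1 each for Trp53, Cdkn1a, Mdm2, Ccng1, Gadd45a and Sesn1) and in 16.7% of 48 windows of the other p53 targets. A match is a description of these letters, not a bound site, and p53 sites that lie outside such windows, as in introns, were not looked for. The 24 windows with a pair belong to 20 genes, of which 6 were tested. Beside Cdkn1a, Ifitm2 was called higher (log2 fold change 0.44 ± 0.12 SE), and Dnajc7, Pard3, Itm2a and Gm37116 were not called, at 0.08, -0.24, 0.50 and 0.32 on the log2 scale.

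Of 7 tested genes that start within 200 kb of the Cdkn1a start, 2 were called higher and 0 lower, both named after their values were seen. They were AC167363.2, which starts 3.48 kb away (log2 fold change 4.25 ± 0.69 SE, edgeR adjusted p = 0.00626), and the splicing factor gene Srsf3, 58.3 kb upstream (0.68 ± 0.16 SE, edgeR adjusted p = 0.0324). Leaving out each library in turn gave 3.76 to 5.34 for AC167363.2, the highest without WT 1, and kept its call (adjusted p up to 0.0391), which was lost with CREBH-KO 1 alone against WT (4.15, edgeR adjusted p = 0.131). The call of Srsf3 was lost without WT 2, WT 3, CREBH-KO 2 or CREBH-KO 3, with an adjusted p of up to 0.125. Trp53cor1, the p53-induced noncoding RNA lincRNA-p21, lies 11.8 kb from Cdkn1a on the minus strand. It had 6, 2 and 7 counts in CREBH-KO 1, 2 and 3 and 0 counts in each WT library. Against a floor of 3 counts over the WT group, that made it 5.26-fold higher in CREBH-KO. The floor allows for counting error in WT alone and the CREBH-KO counts were taken as exact, so the ratio is no lower bound. Its counts were too few for the filter, it was not tested, and 44.1% of its exonic bases lie antisense to other transcripts.

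**Figure D2:**
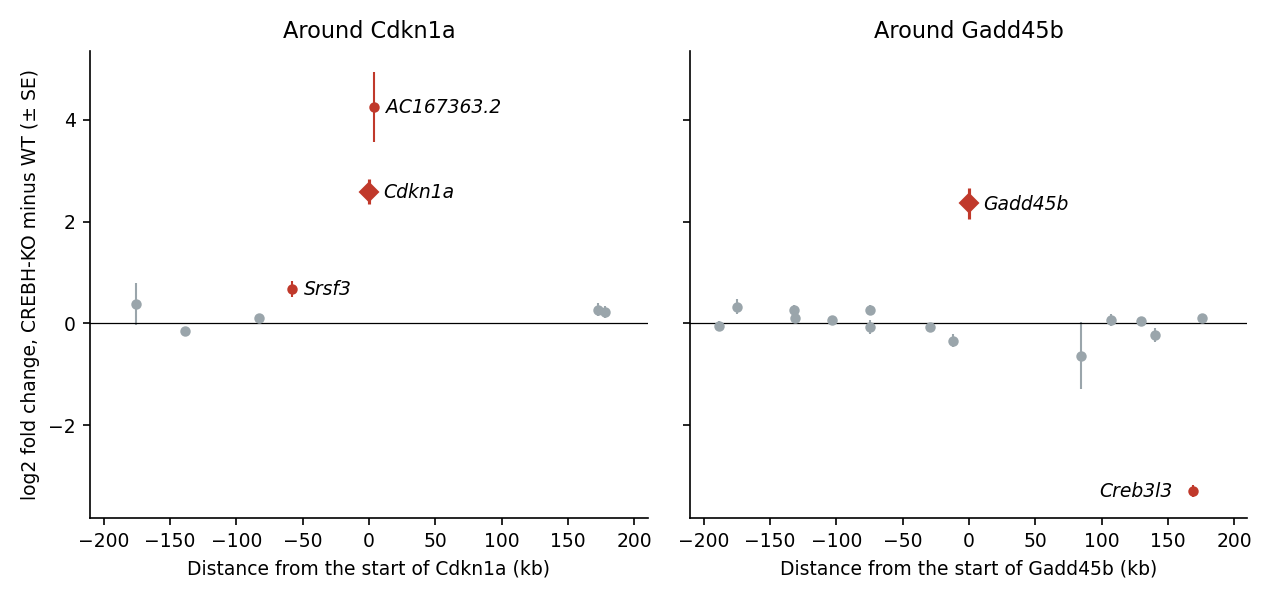
Log2 fold change (CREBH-KO minus WT, ± SE) of tested genes against the distance of their start from the start of Cdkn1a (left) or Gadd45b (right), in kb; red marks an adjusted p under 0.05. Around Cdkn1a, AC167363.2 and Srsf3 were called with it; around Gadd45b, Creb3l3 was called lower and no other neighbour was called.

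The genes whose pattern over the 6 libraries was most like that of Cdkn1a were ranked among 12564 genes by the mean absolute difference of mean-centred log2(CPM + 0.1). Rad51b, a recombination repair gene, was nearest (0.16), followed by Gadd45b (0.19), the Eph receptor gene Ephb6 (0.22), the calcium pump gene Atp2b2 (0.22) and the unnamed locus Gm37795 (0.27). Rad51b had 4.65, 10.2 and 5.69 CPM in CREBH-KO, against 1.32, 1.16 and 0.813 CPM in WT. Like Cdkn1a, it was highest in CREBH-KO 2 and lowest among the CREBH-KO libraries in CREBH-KO 1. The ranking uses these same libraries, so a shared order follows from how Rad51b was picked and nothing is read from it. Gadd45g ranked 65 (0.60), and the 7 other members ranked between 2148 and 12374.

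The other CDK inhibitors of the p21 family were not called. Cdkn1b, which encodes p27, averaged 27.8 ± 1.86 CPM in CREBH-KO and 25.1 ± 1.54 CPM in WT (SD, n = 3), a log2 fold change of 0.15 ± 0.09 (SE). Cdkn1c, which encodes p57, averaged 1.41 ± 0.0997 CPM in CREBH-KO and 1.35 ± 0.394 CPM in WT (log2 fold change 0.06 ± 0.30 SE). Over the list of 18 CDK inhibitors, CDKs, G1 cyclins and pocket proteins, 2 were called higher and 2 lower. That is 22.2% called, beside 10.4% of all genes tested, with a median log2 fold change of -0.17. Cyclin D1 (Ccnd1) was called higher at 0.97 ± 0.26 SE (edgeR adjusted p = 0.0479), as was the repressor E2f4 at 0.41 ± 0.09 SE (adjusted p = 0.0234). Cyclin D3 (Ccnd3) was called lower at -0.35 ± 0.07 SE (edgeR adjusted p = 0.0203), as was the pocket protein gene Rbl2 at -0.40 ± 0.10 SE (adjusted p = 0.0366). None of these 4 calls held when each library was left out in turn. Without WT 2 or WT 3 all 4 were lost. Without CREBH-KO 2 all 4 were lost as well, without CREBH-KO 3 all but Ccnd1, without CREBH-KO 1 Ccnd1 and Rbl2, and without WT 1 Ccnd1. The adjusted p then reached 0.156 for Ccnd1, 0.130 for Rbl2, 0.0953 for E2f4 and 0.0850 for Ccnd3. Antisense genes overlap 23.4% of the exonic bases of Ccnd1 (LTO1) and 21% of those of Rbl2 (Aktip and Gm45464).

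Genes of DNA replication and mitosis summed to 64.8 to 72.4 CPM in CREBH-KO and 62.5 to 68.1 CPM in WT, ranges that overlapped. Of 26 listed S to M phase genes 21 were tested, and 1 was called lower and 0 higher by edgeR (1 at an unadjusted p under 0.05, 0 by DESeq2 and 1 by limma). The share called by edgeR was 4.76%, beside 10.4% of all genes tested. Mki67, the proliferation marker Ki-67, had 1.17, 0.642 and 0.520 CPM in CREBH-KO, against 0.672, 0.657 and 0.715 CPM in WT. CREBH-KO 1 was the highest library and CREBH-KO 3 the lowest, so the groups overlapped. The gene called was Ube2c, a ubiquitin-conjugating enzyme of mitosis, named after its values were seen since it stayed under 1 CPM. It had 6, 4 and 3 counts in CREBH-KO and 27, 13 and 20 counts in WT, and its call was lost whichever library was left out (edgeR adjusted p up to 0.107). Of its exonic bases 22.8% lie antisense to Tnnc2.

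Ccng1 (chr11:40748552-40755311, minus strand), which encodes the p53 target cyclin G1, had 30.4, 35.4 and 29.9 CPM in CREBH-KO 1, 2 and 3, against 28.7, 31.2 and 24.2 CPM in WT 1, 2 and 3. WT 2 lay above CREBH-KO 1 and CREBH-KO 3, so the groups overlapped. Ccng1 had a log2 fold change of 0.19 ± 0.11 (SE, n = 3), with a 95% interval of 0.950- to 1.36-fold, and 0.09 with CREBH-KO 1 alone against WT. Btg2 (chr1:134075170-134079120, minus strand), an antiproliferative gene that p53 and growth factors induce, had 24.1, 11.6 and 9.52 CPM in CREBH-KO, against 8.35, 14.4 and 17.4 CPM in WT. The groups overlapped: CREBH-KO 1 was the highest of the 6 libraries and WT 1 the lowest. Its log2 fold change was 0.18 ± 0.35 (SE, n = 3), it was 0.83 with CREBH-KO 1 alone against WT, and it ran from -0.34 to 0.42 when each library was left out in turn, so its sign rested on single libraries.

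Tested were 12 relatives of BTG and cyclin G proteins, which include the CCR4-NOT deadenylase that BTG proteins recruit. Among them 1 was called higher and 0 lower (8.33% called, beside 10.4% of all genes tested). It was Btg1, the close relative of Btg2, with 81.9, 82.1 and 88.7 CPM in CREBH-KO, against 54.1, 51.9 and 32.9 CPM in WT. All 3 CREBH-KO libraries lay above all WT libraries, the log2 fold change was 0.86 ± 0.16 (SE, n = 3, edgeR adjusted p = 0.0123), and the call held when each library was left out in turn (adjusted p up to 0.0495). Ccng2, the cyclin G gene induced by FoxO factors, averaged 17.7 ± 1.45 CPM in CREBH-KO and 15.9 ± 2.33 CPM in WT (SD, n = 3), with a log2 fold change of 0.16 ± 0.13 (SE).

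The 3 GADD45 genes did not move together. Gadd45g (chr13:51846678-51848468, plus strand), known as a cytokine-induced gene, had 120.2, 116 and 77.9 CPM in CREBH-KO 1, 2 and 3, against 10.7, 27.8 and 22.1 CPM in WT 1, 2 and 3. The groups lay far apart, with the lowest CREBH-KO library well above the highest WT library. Gadd45g thus had a log2 fold change of 2.38 ± 0.31 (SE, n = 3), or 5.21-fold, 2.56 in CREBH-KO 1 alone against WT, and 2.06 to 2.68 when each library was left out.

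Gadd45b (chr10:80930073-80932204, plus strand), known to curb death signalling in hepatocytes, had 16.5, 31.5 and 23.7 CPM in CREBH-KO, against 6.88, 3.47 and 3.48 CPM in WT. As for Cdkn1a, CREBH-KO 2 was the highest library and CREBH-KO 1 the lowest of the CREBH-KO libraries, while WT 1 was the highest WT library. The log2 fold change was 2.36 ± 0.31 (SE, n = 3), or 5.13-fold. In CREBH-KO 1 alone against WT it was 1.81 and was no longer called, whereas it stayed called, at 2.11 to 2.77, when each library was left out in turn. Gadd45b lies 152 kb from Creb3l3 on chromosome 10, so the genes around it were looked at. Of 15 tested genes that start within 200 kb of Gadd45b, Creb3l3 was called lower (log2 fold change -3.29 ± 0.11 SE, edgeR adjusted p = 3.00e-06) and 0 were called higher. The absence of CREBH and DNA linked to the targeted allele cannot be told apart for Gadd45b.

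Gadd45a (chr6:67035096-67037457, minus strand), the GADD45 gene with the best known p53 site, in an intron, went the other way. It had 1.49, 0.845 and 1.04 CPM in CREBH-KO, against 2.46, 2.28 and 4.88 CPM in WT. The groups did not overlap, but WT 3 was about 2-fold above the other WT libraries and the counts were low, 25 to 51 in CREBH-KO and 73 to 150 in WT. Gadd45a had a log2 fold change of -1.50 ± 0.37 (SE, n = 3), a 2.82-fold lower level. It was no longer called without WT 2, WT 3, CREBH-KO 2 or CREBH-KO 3 (range -1.76 to -1.07), nor in CREBH-KO 1 alone against WT (-1.12). Of its exonic bases 19.1% lie antisense to E230016M11Rik, which had 18, 19 and 22 counts in CREBH-KO and 62, 38 and 14 counts in WT. In that stretch the reads cannot be told apart.

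Per length, Gadd45g made up most of the GADD45 mRNA in both genotypes. The summed level was 114, 119 and 81.9 RPKM (TMM-scaled counts divided by the length of the merged exons in kilobases) in CREBH-KO 1, 2 and 3, against 14.8, 27.2 and 23.8 RPKM in WT 1, 2 and 3. Gadd45g held 81.1% to 90.1% of that sum in CREBH-KO and 61.4% to 87.2% in WT, and these ranges overlapped. Gadd45a held 0.401% to 0.744% in CREBH-KO and 4.77% to 11.6% in WT.

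**Figure D3:**
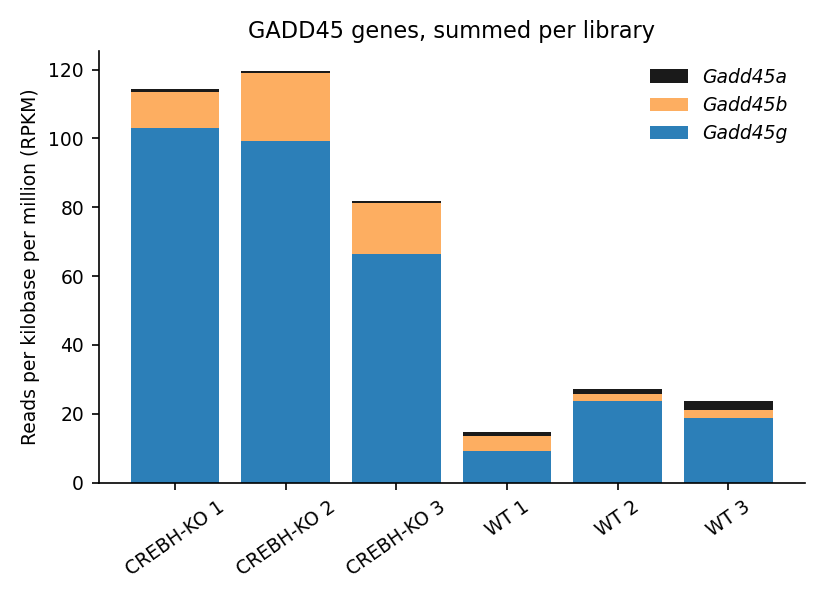
Summed RPKM of Gadd45a, Gadd45b and Gadd45g in each library, stacked, with CREBH-KO left and WT right. The 3 CREBH-KO bars reach 81.9 to 119 RPKM and the 3 WT bars 14.8 to 27.2 RPKM, and Gadd45g is the largest block in all 6.

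The windows before the 3 GADD45 starts are printed to set the pair of higher genes beside the lower one (RefSeq, GRCm38.p6, 250 bases before the start). They lie at chr13:51846425-51846674 on the plus strand for Gadd45g, chr10:80929841-80930090 on the plus strand for Gadd45b, and chr6:67037408-67037657 on the minus strand for Gadd45a. Capitals mark the composite C/EBP and ATF motif TGATGNAA, read on the other strand, in Gadd45g, and the p53 decamer in Gadd45a. In the Gadd45b window none of the motifs searched was found, which says only that these letters are not there.
Gadd45g: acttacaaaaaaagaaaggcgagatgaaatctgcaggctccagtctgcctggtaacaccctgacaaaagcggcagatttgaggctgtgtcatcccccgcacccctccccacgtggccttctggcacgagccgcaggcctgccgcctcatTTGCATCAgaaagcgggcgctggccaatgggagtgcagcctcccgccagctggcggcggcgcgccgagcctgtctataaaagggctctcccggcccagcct
Gadd45b: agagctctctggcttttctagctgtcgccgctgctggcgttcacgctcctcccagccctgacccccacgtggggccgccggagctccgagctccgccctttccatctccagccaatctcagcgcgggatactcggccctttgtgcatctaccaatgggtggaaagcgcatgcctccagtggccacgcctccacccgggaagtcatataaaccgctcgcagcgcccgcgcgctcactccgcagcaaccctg
Gadd45a: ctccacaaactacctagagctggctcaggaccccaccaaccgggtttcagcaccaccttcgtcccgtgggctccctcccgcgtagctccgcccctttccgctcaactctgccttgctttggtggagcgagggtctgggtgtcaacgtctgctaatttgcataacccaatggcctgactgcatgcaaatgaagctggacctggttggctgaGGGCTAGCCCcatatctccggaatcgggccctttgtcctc
The motif TGATGNAA was found in 3.97% of all windows and in no other window of a member. Of the cAMP and ATF type motifs, searched on both strands, TGACGTCA was found in 1.79% of all windows and, among members, in Btg2. Its core TGACG, which is part of TGACGTCA, was found in 20.8% of all windows and in 4 members, Mdm2, Btg2, Sesn1 and Bbc3. None of Cdkn1a, Gadd45a, Gadd45b and Gadd45g held TGACG in these windows.

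The GADD45 proteins bind the kinase Map3k4 and act through p38 and JNK kinases. Of 11 such kinase genes, 1 was called lower and 0 higher (9.09% called, beside 10.4% of all genes tested, median log2 fold change -0.16). It was Map2k3, a kinase that activates p38, at -0.50 ± 0.10 SE (edgeR adjusted p = 0.0126). Its call was lost without WT 2 or CREBH-KO 3, with an adjusted p of up to 0.0593. Map2k3 averaged 44.6 ± 2.52 CPM in CREBH-KO and 63.2 ± 6.74 CPM in WT (SD, n = 3).

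Sesn1 (chr10:41809935-41908424, plus strand), a p53 target that restrains mTORC1 in low amino acids, had 9.92, 8.11 and 10.1 CPM in CREBH-KO 1, 2 and 3, against 10.5, 11.6 and 15.7 CPM in WT 1, 2 and 3. Every CREBH-KO library lay below every WT library, though CREBH-KO 3 and WT 1 were close. The log2 fold change was -0.43 ± 0.17 (SE, n = 3), with a 95% interval of -0.81 to -0.04, and Sesn1 was not called. It was -0.37 with CREBH-KO 1 alone against WT. Of the other sestrins, Sesn2, which ATF4 also induces, averaged 22.2 ± 3.72 CPM in CREBH-KO and 17.3 ± 2.30 CPM in WT (SD, n = 3) and was not called (log2 fold change 0.36 ± 0.14 SE). Sesn3, a FoxO target, was called lower at 15.6 ± 3.21 CPM in CREBH-KO and 24.0 ± 1.47 CPM in WT (log2 fold change -0.62 ± 0.14 SE, edgeR adjusted p = 0.0259).

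Sesn3 was counted in a list of 14 sestrin and mTORC1 regulators, which holds neither Sesn1 nor Sesn2. Of the 14, 4 were called lower and 0 higher (28.6% called, beside 10.4% of all genes tested, median log2 fold change -0.15). Beside Sesn3 they were the kinase Mtor at -0.44 ± 0.09 SE (edgeR adjusted p = 0.0176), its partner Rptor at -0.36 ± 0.08 SE (adjusted p = 0.0284) and Sec13, a subunit of the sestrin-binding GATOR2 complex and of vesicle coats, at -0.29 ± 0.08 SE (adjusted p = 0.0394). All 4 lost the call without WT 2, CREBH-KO 2 or CREBH-KO 3. Rptor and Sec13 lost it also without WT 3 or CREBH-KO 1, and Sec13 without WT 1. The highest adjusted p was 0.0970 for Sesn3, 0.0671 for Mtor, 0.113 for Rptor and 0.127 for Sec13.

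Bbc3 (chr7:16308393-16318205, plus strand), whose product PUMA is the main killer protein that p53 induces, had 19.2, 16.8 and 14.0 CPM in CREBH-KO 1, 2 and 3, against 11.2, 12.9 and 17.5 CPM in WT 1, 2 and 3. WT 3 lay above CREBH-KO 2 and CREBH-KO 3, so the groups overlapped. Bbc3 had a log2 fold change of 0.27 ± 0.18 (SE, n = 3), with a 95% interval of 0.909- to 1.59-fold, and 0.45 with CREBH-KO 1 alone against WT. Pmaip1, which encodes the related p53 target NOXA, was low, at 1.52, 0.507 and 0.275 CPM in CREBH-KO and 0.672, 1.22 and 1.76 CPM in WT. Its groups overlapped as well, and its log2 fold change of -0.64 ± 0.60 (SE) was 0.31 in CREBH-KO 1 alone against WT and -1.63 without CREBH-KO 1.

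Of 13 tested genes on the BCL2 family list, 2 were called lower and 0 higher. On that list 15.4% were called, beside 10.4% of all genes tested, and the median log2 fold change was -0.13. That list leaves out Bbc3, Pmaip1 and Bax, which were counted elsewhere, and Bax was called higher (log2 fold change 0.56 ± 0.14 SE). Bid, which carries death receptor signals to mitochondria, had 6.97, 7.64 and 7.53 CPM in CREBH-KO, against 14.1, 13.6 and 13.2 CPM in WT. The groups lay far apart, and the log2 fold change was -0.89 ± 0.11 (SE, n = 3, edgeR adjusted p = 0.00213). Its call held when each library was left out in turn, with an adjusted p of up to 0.0140. Of the exonic bases of Bid, 17.7% lie antisense to Bcl2l13, and of those of Bnip3 22.3% lie antisense to Gm45507. Bnip3, a mitophagy receptor, was called lower at -0.33 ± 0.08 SE (edgeR adjusted p = 0.0349), a call lost, at an adjusted p of up to 0.132, when WT 2, WT 3, CREBH-KO 2 or CREBH-KO 3 was left out.

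To set the members beside the wider p53 response, 44 further p53 targets were listed, of which 39 were tested. By edgeR, 5 were called higher, 2 lower and 32 not called, or 17.9% called, beside 10.4% of all genes tested. At an unadjusted p under 0.05 there were 15, and DESeq2 and limma called 7 each. The median log2 fold change was 0.11, beside 0.02 for all genes tested, and 21 of 39 lay above 0. The count of 7 fell to 3 without WT 2, 4 without WT 3, 4 without CREBH-KO 2 and 2 without CREBH-KO 3, and 0 were called with CREBH-KO 1 alone against WT.

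Gdf15, a stress hormone induced by p53 and by ATF4 and CHOP, had 12.4, 28.2 and 22.6 CPM in CREBH-KO 1, 2 and 3, against 4.81, 5.85 and 6.31 CPM in WT 1, 2 and 3. CREBH-KO 1 was the lowest CREBH-KO library and CREBH-KO 2 the highest, the order seen for Cdkn1a and Gadd45b. The log2 fold change was 1.90 ± 0.27 (SE, n = 3, edgeR adjusted p = 0.00324). Trp53inp1, a stress protein that promotes p53 phosphorylation and autophagy, had 123, 140.3 and 165 CPM in CREBH-KO, against 83.3, 67.9 and 62.0 CPM in WT. All 3 CREBH-KO libraries lay above all WT libraries, with a log2 fold change of 1.01 ± 0.14 (SE, n = 3; adjusted p = 0.00264 by edgeR). The calls of Gdf15 and Trp53inp1 held when each library was left out in turn, with adjusted p up to 0.0199 and 0.0195. With CREBH-KO 1 alone against WT both calls were lost, at log2 fold changes of 1.12 for Gdf15 (edgeR adjusted p = 0.0618) and 0.77 for Trp53inp1 (edgeR adjusted p = 0.0879).

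Plk3, a stress-responsive kinase, averaged 128 ± 30.0 CPM in CREBH-KO and 71.0 ± 20.2 CPM in WT (SD, n = 3; log2 fold change 0.85 ± 0.21 SE, edgeR adjusted p = 0.0349). Bax, the pore-forming apoptosis protein, averaged 19.1 ± 2.08 CPM in CREBH-KO and 12.9 ± 2.10 CPM in WT (SD, n = 3; log2 fold change 0.56 ± 0.14 SE, edgeR adjusted p = 0.0359). Plk3 and Bax lost their calls, at an adjusted p of up to 0.127 and 0.125, when WT 2, WT 3, CREBH-KO 2 or CREBH-KO 3 was left out, and 12.2% of the exonic bases of Bax overlap Gm45808 on the same strand. Eda2r, a gene of the TNF receptor family named after its values were seen because it stayed under 1 CPM, had 12, 23 and 21 counts in CREBH-KO and 3, 4 and 4 counts in WT. Its log2 fold change was 2.39 ± 0.52 (SE, n = 3, edgeR adjusted p = 0.0220), but the edgeR call was lost when any library but CREBH-KO 1 was left out (adjusted p up to 0.0883). DESeq2 did not call Eda2r, where a gene left without an adjusted p also counts as not called. With CREBH-KO 1 alone against WT its log2 fold change was 1.62. Called lower were the receptor tyrosine kinase gene Epha2, at -1.06 ± 0.22 SE (edgeR adjusted p = 0.0157), and Perp, a membrane protein of cell junctions, at -0.39 ± 0.08 SE (adjusted p = 0.0181). The call of Epha2 was lost without CREBH-KO 3 (adjusted p 0.0507) and that of Perp without WT 2, WT 3, CREBH-KO 1 or CREBH-KO 3 (up to 0.0837).

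**Figure D4:**
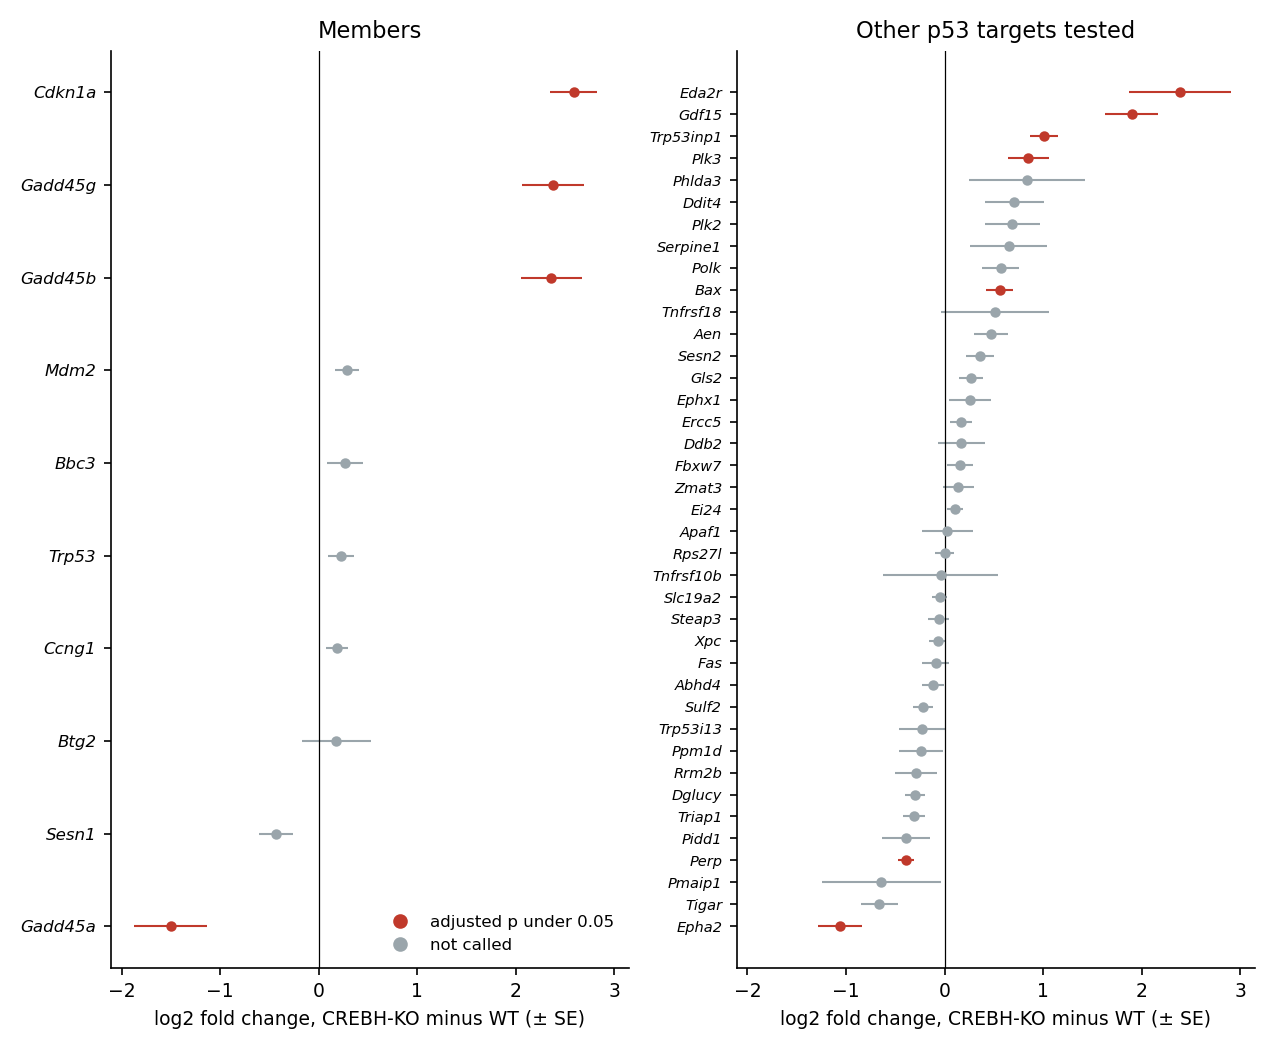
Log2 fold change (CREBH-KO minus WT, ± SE) of the 10 members (left) and of the 39 other p53 targets tested (right), ordered by size; red marks an adjusted p under 0.05. Cdkn1a, Gadd45g and Gadd45b stand at 2.36 to 2.59, and on the right 5 genes were called higher and 2 lower, with the median at 0.11.

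Of 19 transcription factors that have been reported to act on Cdkn1a with or without p53, all were tested. By edgeR, 4 were called higher, 4 lower and 11 not called, or 42.1% called, beside 10.4% of all genes tested. The median log2 fold change was -0.01. The list was drawn up with earlier results of these data known, so nothing is read from the count. Higher were the clock activator Arntl (log2 fold change 1.71 ± 0.37 SE, edgeR adjusted p = 0.0206), Myc, a known repressor of Cdkn1a (1.28 ± 0.23 SE, adjusted p = 0.0103), Klf6, a known activator (0.81 ± 0.13 SE, adjusted p = 0.00549), and Ddit3, which encodes CHOP (0.71 ± 0.18 SE, adjusted p = 0.0359). Lower were the fasting regulator Ppara (-1.28 ± 0.14 SE, edgeR adjusted p = 0.00114), the clock repressor Nr1d1 (-0.89 ± 0.13 SE, adjusted p = 0.00318), Foxo3 (-0.69 ± 0.17 SE, adjusted p = 0.0367) and the hepatocyte factor Cebpa (-0.67 ± 0.10 SE, adjusted p = 0.00390). Myc, Klf6, Ppara, Nr1d1 and Cebpa held their calls when each library was left out in turn. Arntl had 461, 344 and 441 counts in CREBH-KO 1, 2 and 3, against 264, 90 and 62 counts in WT 1, 2 and 3, so WT 1 lay well above the other WT libraries. Leaving out each library in turn gave Arntl log2 fold changes of 1.40 to 2.40, the highest without WT 1. Its call was lost, at an adjusted p of up to 0.0859, when WT 2, CREBH-KO 2 or CREBH-KO 3 was left out. Ddit3 lost it when any library but WT 3 was left out (up to 0.123), and Foxo3 when any but WT 1 was left out (up to 0.134). Of the exonic bases of Ddit3, 10.9% overlap other annotated genes, and of those of Nr1d1 8.55% lie antisense to Thra.

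**Figure D5:**
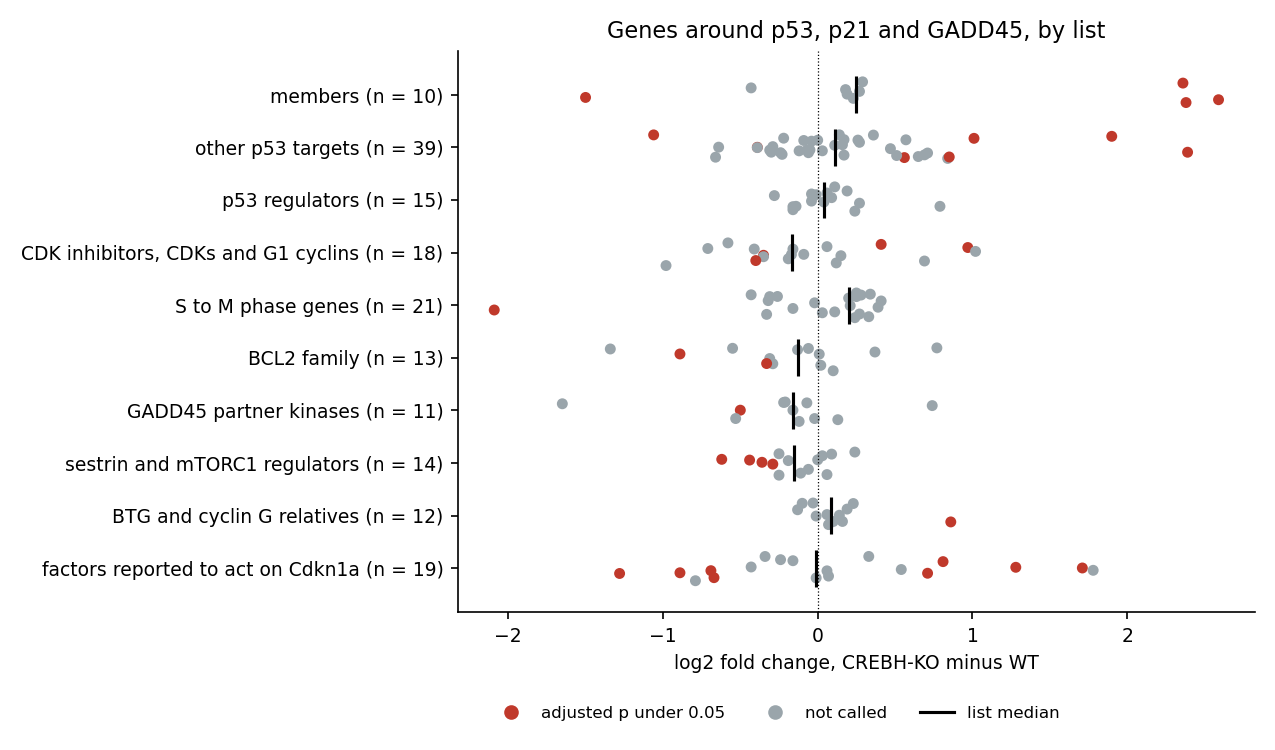
Log2 fold change (CREBH-KO minus WT) of each tested gene in the members and 9 surrounding lists, 1 point per gene with a vertical bar at the list median; red marks an adjusted p under 0.05 and the vertical spread of the points carries no value. Medians lie between -0.17 and 0.25, and Cdkn1a, Gadd45b and Gadd45g stand apart at the right of the members' line.

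Compared per length, the order of the members differed between the genotypes. In CREBH-KO, Gadd45g led at 89.3 ± 19.9 RPKM (SD, n = 3), above Gadd45b at 15.0 ± 4.74 and Cdkn1a at 13.2 ± 4.71 RPKM, and Gadd45a was last at 0.638 ± 0.188 RPKM. In WT, Gadd45g led as well, at 17.2 ± 7.43 RPKM, but Gadd45b at 2.90 ± 1.24 and Cdkn1a at 2.19 ± 0.229 RPKM came near the end, above Gadd45a at 1.82 ± 0.822 RPKM. Between these ends, in both genotypes, Ccng1 (9.08 RPKM in CREBH-KO and 7.98 RPKM in WT), Mdm2 (7.88 RPKM in CREBH-KO and 6.44 RPKM in WT), Bbc3 (7.85 RPKM in CREBH-KO and 6.53 RPKM in WT), Trp53 (5.69 RPKM in CREBH-KO and 4.86 RPKM in WT) and Btg2 (5.49 RPKM in CREBH-KO and 4.87 RPKM in WT) formed a band. Sesn1 lay under it at 2.35 RPKM in CREBH-KO and 3.17 RPKM in WT. In CREBH-KO the neighbours Gadd45b and Cdkn1a, Cdkn1a and Ccng1, Mdm2 and Bbc3, and Trp53 and Btg2 overlapped in their ranges over libraries. In WT the ranges of Ccng1, Bbc3, Mdm2, Btg2 and Trp53 each overlapped that of the next, as did those of Sesn1, Gadd45b, Cdkn1a and Gadd45a.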

How the data were processed

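Per the labels' protocols, total liver RNA was sequenced as paired-end reads on an Illumina HiSeq instrument. The authors deposited read counts per gene, 1 file per library, whose titles name HTSeq. The labels and file headers used here give no aligner, build, HTSeq version or strandedness of counting. Each of the 55536 identifiers matched GENCODE M21 (GRCm38), which gave symbols, positions and exon lengths, so the build is inferred. HTSeq's summary lines (27.4% to 31.2% of each file) were left out of library sizes.

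The test was run in edgeR 4.0.16 under R 4.3.3: filterByExpr (minimum count 10, minimum total 15; 15589 genes kept), TMM factors (0.967 to 1.05), the quasi-likelihood test with no covariate, and Benjamini-Hochberg adjustment over all genes tested, two-sided, called at 0.05. Each SE was taken as the size of the log2 fold change over the root of its F statistic, and 95% intervals use 9.22 degrees of freedom. CPM and RPKM were computed here from the deposited counts with effective library sizes and exon-union lengths. DESeq2 1.42.0, limma 3.58.1 (voom), other scalings and filters, and leaving out libraries were tried as alternatives. Replicate pairs differed beyond sampling noise (chi-square per degree of freedom at least 18.4). The method was tested on simulated data. For CREBH-KO against WT it recovered 35.8% of genes changed 1.5-fold, 79.1% of those changed 2-fold and 90.9% of those changed 4-fold, among 15240 genes tested, and 7.43% of calls were unchanged genes.

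The members, the gene lists and the tests were chosen with earlier results of these data known. Named were all members, up to 4 called genes per list and direction that reach 1 CPM in their higher group, a fixed set of close relatives of the members, and the 5 genes most like Cdkn1a.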

Additional observations from a re-analysis of the deposited data

How the results depend on the processing

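No paired analysis was possible because replicate numbers were given in accession order and pair no libraries. Genes called numbered 1616 (37.7% of them higher), 2456 with no filter on low counts, 228 with CREBH-KO 1 alone against WT, and 658 to 1806 when each library was left out (658 without WT 2, 838 without CREBH-KO 2, 778 without CREBH-KO 3). Scaling by library size alone called 1539, of which 52.8% were higher, and moved the median log2 fold change of all genes to 0.10, beside 0.02. Members called numbered 4, and 2 with CREBH-KO 1 alone, and 3 to 4 when each library was left out. Other p53 targets called numbered 7, 12 with no filter, 0 with CREBH-KO 1 alone and 2 to 8 when each library was left out. Genes called in the remaining pathway lists numbered 21, 1 with CREBH-KO 1 alone (Ppara) and 7 to 21 when each library was left out (7 without WT 2, 12 without WT 3, 8 without CREBH-KO 2 or CREBH-KO 3). With CREBH-KO 1 alone the test has 1 library on that side, which is assumed to vary like the WT libraries, and with no filter more genes are tested. Signs turned for values that were not called: Mdm4 ran from -0.07 to 0.13, Cdkn1c from -0.15 to 0.26 and Mki67 from -0.23 to 0.42 when each library was left out, and Pmaip1 was 0.31 with CREBH-KO 1 alone. With CREBH-KO 1 alone, the member log2 fold changes that moved most were those of Cdkn1a (1.93), Btg2 (0.83) and Gadd45b (1.81). CREBH-KO 1 is itself 1 of the 3 CREBH-KO libraries behind the main values, and the cause of these moves was not tested. Of 30 called genes named from the pathway lists and the neighbours of Cdkn1a, 10 kept the call whichever library was left out and 20 lost it at least once. The called genes Creb3l3, Apob, Dcn, Sox9 and Ifitm2 are not part of this count. Scaling by library size alone also ended the calls of Perp, Rbl2, Ccnd3, Bnip3, Rptor and Sec13, the robust fit those of Plk3, Arntl and Foxo3, and RLE factors and limma that of Ccnd1. Eda2r and Ube2c were not among the DESeq2 calls, where a gene left without an adjusted p counts as not called. Intervals cover the spread between these 3 libraries per genotype only.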
